A study of Mus musculus with 12 samples.

Results

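The 44 genes described here encode nucleolar proteins, rRNA processing and ribosome assembly factors, and components of the RNA polymerase I machinery. They were listed by name from these known roles, and all 44 names matched a gene among the 55401 gene identifiers in the deposited count files. Each is annotated as protein-coding in GENCODE M21 (build GRCm38), and together they lie on 17 chromosomes. The hearts were from adult mice and of either genotype WT or genotype Rpl3l-/- (here KO), and each genotype was measured in 2 RNA fractions. The Input fraction is total RNA of heart homogenates. The IP fraction is RNA recovered with ribosomes on anti-HA antibody and magnetic beads, a method the submitters call Nano-TRAP, from hearts treated with cycloheximide at excision. The 4 groups (WT Input, KO Input, WT IP and KO IP) held 3 biological replicates each, 12 libraries in all. Both genotypes were pulled down with the same antibody, but the labels name neither the tagged protein nor the cells that carry the tag, and give no age beyond adult, no sex and no strain. Whether any 2 libraries of different fractions came from 1 heart is not stated.

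Rpl3l encodes a muscle-restricted paralog of Rpl3, a core protein of the large ribosomal subunit. Ribosomes are built in the nucleolus: RNA polymerase I transcribes the precursor of the large rRNAs, small nucleolar ribonucleoproteins (snoRNPs) guide its chemical modification and some of its cuts, and a succession of assembly factors folds it with ribosomal proteins into the small and large subunits, which are then exported. Most heart muscle cells do not divide, and in the heart these genes are best known for rising when the muscle grows. In the list below they are ordered by role: RNA polymerase I (5 genes), snoRNP proteins (8), nucleolar scaffold and helicase proteins (5), small subunit factors (12) and large subunit factors (14).

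Library totals were 169359 to 710868 counts, with the KO Input libraries lowest at 291040, 289594 and 169359. At such depths 3 counts correspond to 4.22 to 17.7 counts per 1000000 of the library total (CPM). Levels of genes below are CPM of library sizes scaled by the trimmed mean of M values (TMM), unless another scale is named. Counts were seen in all 12 libraries for 43 members; Heatr1, a small subunit processome protein, had 0 in WT Input replicate 2, where 3 counts, the limit a count of 0 allows, would be 7.05 CPM of the library total. After a filter on low counts 36 members remained among 6596 genes tested. The 8 that did not pass were Polr1b, Polr1c, Utp14a, Heatr1, Imp4, Bop1, Nop2 and Grwd1. The exons of 18 members overlap a gene on the other strand, and no source used here gives the strand setting of the counting. Reads that lie only within a shared stretch could therefore have been counted for either gene. The genes of 6 members (Nop56, Nop58, Dkc1, Ncl, Gnl3 and Tsr1) contain 18 annotated snoRNA genes, which had 2 counts in all. The deleted gene itself checked the genotype labels: Rpl3l stood at 222, 308 and 279 CPM in WT Input and at 68.55, 27.0 and 51.1 CPM in KO Input, and at 269, 271 and 275 CPM in WT IP against 2.33, 2.62 and 8.31 CPM in KO IP. Summed cardiomyocyte markers were similar in all libraries (57610 to 67490 CPM), although Actc1 of that list was at 0 in every library. Globin genes took 1.70 to 17.3% of the counts and over 10% only in WT IP replicate 2 and WT Input replicate 3.

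Sequence that the members share was read from 300-base promoter windows of RefSeq (build GRCm38.p6, 250 bases before to 50 bases after a start), which held 45 windows for 38 of the 44 members. The E-box CACGTG, the motif bound by Myc and related factors (it reads the same on both strands), occurred in 8 of these 38 genes (21.1%), in 23 of 119 other ribosome biogenesis genes (19.3%), in 12.0% of the genes tested and in 8.09% of all genes with a window. By window it occurred in 17.8% of the members' 45 and in 7.15% of all 32851 of that length. The 8 stretches are shown because E-boxes of this kind are known from promoters of ribosome biogenesis genes; capitals mark the motif, and each sequence reads 5′ to 3′ along its gene.
Imp4 (chr1:34439698-34439723, + strand): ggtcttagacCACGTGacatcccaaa
Nmd3 (chr3:69721931-69721956, + strand): ccccttgctaCACGTGtattctttga
Nop2 (chr6:125131813-125131838, + strand): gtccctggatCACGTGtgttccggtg
Grwd1 (chr7:45830740-45830765, - strand): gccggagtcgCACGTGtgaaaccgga
Ltv1 (chr10:13193094-13193119, - strand): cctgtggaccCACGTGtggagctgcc
Pes1 (chr11:3963967-3963992, + strand): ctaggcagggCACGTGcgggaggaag
Mybbp1a (chr11:72441357-72441376, + strand): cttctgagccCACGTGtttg
Tsr1 (chr11:74898094-74898119, + strand): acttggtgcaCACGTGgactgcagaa
The motif began 121, 114 and 60 bases before the start in Imp4, Nmd3 and Nop2, and after the start in the other 5. A match is only a run of letters in a window and does not show a bound factor. None of these 8 genes passed the test in any comparison below, and 3 of them (Imp4, Nop2 and Grwd1) were not tested. A run of at least 5 C or T bases that reached within 3 bases of the start on either side was found in 12 of the 38 members (31.6%). This was close to the 31.3% of all genes tested and below the 50.9% (29 of 57) of cytosolic ribosomal protein genes. The rule is looser than the C and T run known from the start of ribosomal protein mRNAs, since the run need not begin at the first transcribed base.

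The first comparison asks how total RNA for these genes differed between Rpl3l-/- and WT hearts. No member passed the test in Input (edgeR quasi-likelihood, Benjamini-Hochberg adjusted p under 0.05 over all 6596 genes), where 0.182% of all genes did. By unadjusted p, 4 of the 36 members were under 0.05 (Pes1, Sbds, Ncl and Nhp2), all with a lower KO mean, beside 7.11% of all genes. The median log2 fold change of KO against WT over the 36 members was -0.33, with 23 negative and 13 positive, beside a median of -0.01 over all genes tested. Leaving out 1 library at a time moved the members' median between -0.48 (without KO Input replicate 2) and -0.21 (without WT Input replicate 1). In bulk tissue, fewer cells of a type and less RNA per cell cannot be told apart.

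For 7 of the 36 members (19.4%) every KO Input library lay below every WT Input library, beside 6.20% of all genes tested, and for none did every KO library lie above (6.17% of all genes). These 7 were Nhp2, Ncl, Rrp9, Pes1, Rrp1, Nop16 and Sbds. Of them 4 are large subunit factors, 1 is a small subunit factor, 1 a snoRNP protein and 1 a nucleolar scaffold protein. The exons of Nhp2, Rrp9 and Pes1 overlap a gene on the other strand. The KO Input libraries were also the shallowest, and replicate 3 of that group held only 258 counts for all 44 members together. Nop16 reached the level of the count filter only in the WT Input libraries (13, 13 and 10 counts), and Nhp2 would not have passed without them. Their places among the 7 therefore depend in part on a filter met through the group where they are high. How many of all genes tested passed in this way was not counted.

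**Figure D1:**
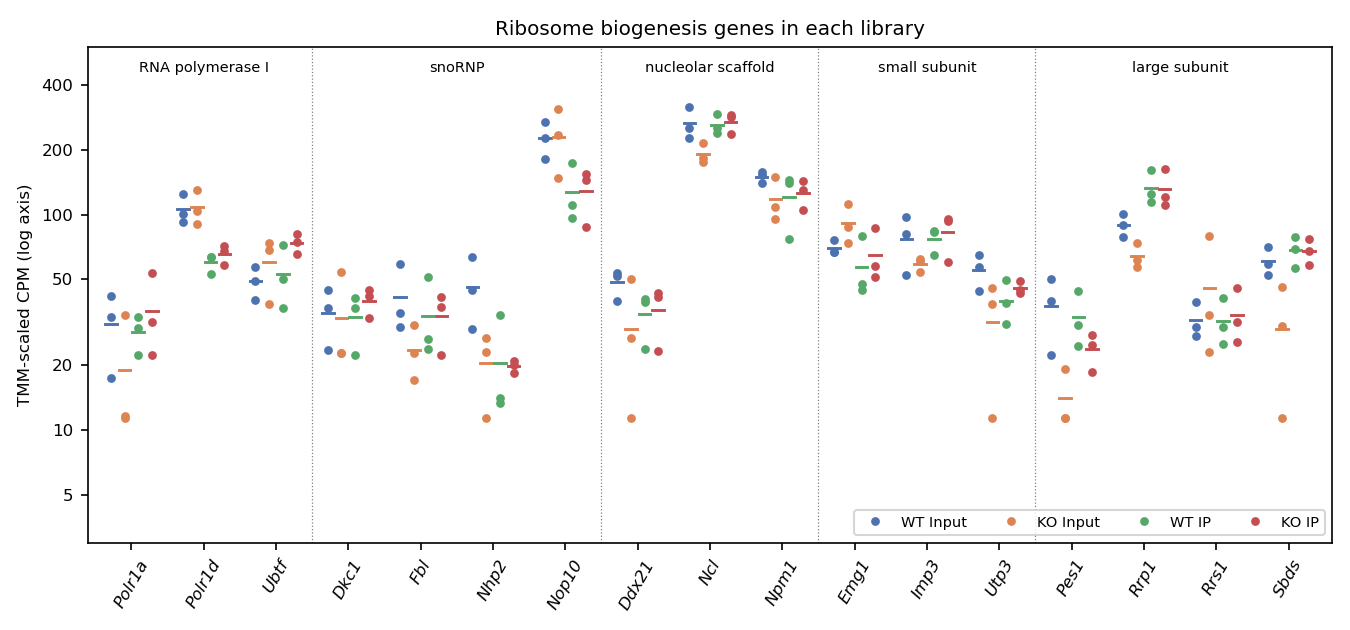
Level of 17 members in each of the 12 libraries, as TMM-scaled CPM on a log axis; points are libraries, short bars are means of 3, colours are the 4 groups, and genes are ordered by role. In Input the KO points of Ncl, Nhp2, Pes1, Rrp1 and Sbds lie below the WT points, while in IP the genotypes overlap for each of the 17.

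Among the large subunit factors, Pes1, which works with Bop1 and Wdr12 in a complex needed for precursor rRNA processing, had 39.9, 22.2 and 50.4 CPM in WT Input and 11.4, 19.3 and 11.4 CPM in KO Input. All 3 KO libraries were lower, but they rest on 10 counts together against 40 in WT. The fitted log2 fold change was -1.34 (SE 0.51, unadjusted p = 0.0138, adjusted p = 0.538 by edgeR). Pes1 in IP stood at 44.4, 30.8 and 24.7 CPM in WT and at 18.7, 27.5 and 24.9 CPM in KO, with overlap. Pes1 is 1 of the members with exons that overlap another gene (4930556J24Rik).

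Sbds, the protein that helps to release a late anti-association factor from the large subunit and is mutated in Shwachman-Diamond syndrome, had 52.3, 59.2 and 70.5 CPM in WT Input. In KO Input it had 30.5, 46.2 and 11.4 CPM, all below the WT range and with a wide spread, from 8, 12 and 2 counts. The log2 fold change was -0.95 (SE 0.37, unadjusted p = 0.0180, adjusted p = 0.586 by edgeR). In IP the genotypes covered the same range, with 69.6, 78.8 and 56.3 CPM in WT and 67.7, 77.2 and 58.2 CPM in KO.

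Rrp1, a nucleolar protein of large subunit rRNA processing, had 89.7, 78.9 and 100.8 CPM in WT Input and 57.1, 61.6 and 73.9 CPM in KO Input. The ranges were separate, but the log2 fold change of -0.49 (SE 0.28) had an adjusted p of 0.741 by edgeR. Rrs1, a factor of early large subunit precursors, overlapped between genotypes in both fractions: 27.4, 39.5 and 30.2 CPM in WT Input, 34.3, 23.1 and 79.6 CPM in KO Input, 25.2, 41.1 and 29.9 CPM in WT IP and 25.7, 45.8 and 31.6 CPM in KO IP. Over the 11 large subunit factors tested the median log2 fold change in Input was -0.42, with 9 negative. Summed over all 14 of them, the level was 402 to 484 CPM in WT Input and 308.5 to 347 CPM in KO Input. These sums did not overlap, and they stayed separate with library totals as the scale (383 to 404 against 278 to 348 CPM) and with globin counts left out of the totals (389.8 to 468 against 289 to 354.5 CPM). No test was made on the sums. They hold the same Input values of Sbds, Rrp1, Pes1 and Nop16 that were given above as separate, so they are not a separate observation. Mean CPM in WT and KO Input was 60.7 and 29.35 for Sbds and 89.8 and 64.2 for Rrp1. It was 37.5 and 14.0 for Pes1 and 32.7 and 15.9 for Nop16, beside 444 and 330 for the sum. Other large subunit factors, outside the members, did not share this lower level in KO Input. Of 22 tested, 16 had a positive log2 fold change and 6 a negative one, with a median of 0.04. The difference between these factors and the members was not tested.

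The nucleolar scaffold proteins include the member with the most counts. Ncl, or nucleolin, an abundant nucleolar protein of rRNA transcription and processing, had 317, 227 and 252 CPM in WT Input and 183, 216 and 176 CPM in KO Input. All 3 KO libraries were lower, by a fitted log2 value of -0.46 (SE 0.19, unadjusted p = 0.0253, adjusted p = 0.645 by edgeR). In IP, Ncl was at 238, 293 and 252 CPM in WT and at 285, 289 and 238 CPM in KO, so the ranges overlapped. Npm1, nucleophosmin, had 152, 140.6 and 158 CPM in WT Input and 95.2, 150.2 and 108 CPM in KO Input; here KO replicate 2 lay within the WT range. Ddx21, an RNA helicase of the nucleolus, had 39.9, 51.8 and 53.7 CPM in WT Input and 26.7, 50.1 and 11.4 CPM in KO Input, again with overlap. In IP, neither Npm1 (145, 77.1 and 141 CPM in WT; 105, 131 and 143 CPM in KO) nor Ddx21 (23.7, 39.4 and 40.5 CPM in WT; 23.3, 43.2 and 41.6 CPM in KO) separated the genotypes.

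Of the 8 snoRNP proteins, Nhp2, which with Nop10, Gar1 and Dkc1 forms the H/ACA particle that makes pseudouridine, was the only one with separate Input ranges: 44.9, 29.6 and 63.8 CPM in WT and 26.7, 23.1 and 11.4 CPM in KO. Its log2 fold change was -1.08 (SE 0.49, unadjusted p = 0.0380, adjusted p = 0.676 by edgeR), from 15 counts in KO against 49 in WT. Its exons overlap those of Rmnd5b. Dkc1, the pseudouridine synthase itself, overlapped widely, with 44.9, 37.0 and 23.5 CPM in WT Input and 22.9, 53.9 and 22.7 CPM in KO Input. Fbl, fibrillarin, the methyltransferase of the box C/D particles, had 34.9, 59.2 and 30.2 CPM in WT Input and 22.9, 30.8 and 17.1 CPM in KO Input, with 1 KO library just inside the WT range. Of the 8 fold changes in Input, 4 were positive and 4 negative.

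To show the start regions of the 3 members with separate Input ranges and unadjusted p under 0.05 that the RefSeq windows cover, 80 bases are given for each, 60 before the start and 20 after it, with the first 6 transcribed bases in capitals.
Ncl (chr1:86359436-86359515, - strand): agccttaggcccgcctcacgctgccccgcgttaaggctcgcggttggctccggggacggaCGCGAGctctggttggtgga
Nhp2 (chr11:51619713-51619792, + strand): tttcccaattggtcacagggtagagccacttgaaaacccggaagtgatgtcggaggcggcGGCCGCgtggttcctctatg
Pes1 (chr11:3963915-3963994, + strand): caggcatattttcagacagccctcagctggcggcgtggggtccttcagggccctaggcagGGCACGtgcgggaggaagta
Of these 3, the 300-base window of Pes1 holds an E-box and those of Ncl and Nhp2 do not.

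Among small subunit factors the median in Input was -0.37 over 9 tested, with 5 negative. Utp3, a protein of the small subunit processome, had 64.8, 44.4 and 57.1 CPM in WT Input and 45.7, 38.5 and 11.4 CPM in KO Input, with KO replicate 1 inside the WT range. Imp3, which binds the snoRNA that pairs with the precursor rRNA, had 52.3, 81.4 and 97.4 CPM in WT Input and 60.9, 53.9 and 62.5 CPM in KO Input. Emg1, a methyltransferase of the small subunit rRNA, had the opposite sign: 67.3, 76.5 and 67.2 CPM in WT Input and 87.6, 112 and 73.9 CPM in KO Input. All 3 genes overlapped between genotypes. The summed level of the 12 factors was 367 to 386 CPM in WT Input and 307 to 358 CPM in KO Input, but these ranges touched once library totals were the scale (322 to 350.1 against 319 to 323 CPM).

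For RNA polymerase I, the genotypes overlapped in Input for each tested gene. Ubtf, the transcription factor that opens rRNA genes for the polymerase, had 57.3, 49.3 and 40.3 CPM in WT Input and 68.55, 38.5 and 73.9 CPM in KO Input. Polr1a, the largest catalytic subunit, had 17.5, 41.9 and 33.6 CPM in WT Input and 11.4, 11.6 and 34.1 CPM in KO Input, so that 2 KO libraries lay below all WT libraries and 1 within their range. The sum over the 5 genes of this role was 179.5 to 222 CPM in WT Input and 177 to 236 CPM in KO Input.

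The second comparison asks the same of RNA recovered with tagged ribosomes. In IP no member passed the test, where 0.0910% of all genes did, and none had an unadjusted p under 0.05, beside 5.20% of all genes. The median log2 fold change of the 36 members was 0.06, with 21 positive and 15 negative, beside 0.00 over all genes. With library totals in place of TMM factors the median of all genes itself moved to 0.12 and that of the members to 0.18. Leaving out 1 library moved the members' median between 0.01 (without KO IP replicate 1) and 0.12 (without WT IP replicate 2), and with thinned libraries, where 9 members remained to be tested, it was -0.10, so its sign is not settled. Every KO library lay below every WT library for 2 members (5.56%; 5.44% of all genes), Rrp12, a factor of subunit export, and Nmd3, the export adaptor of the large subunit. Rrp12 would not have passed the count filter without its WT IP libraries. In the opposite direction none of the 36 separated (5.40% of all genes); the untested Heatr1 did, at 7.40, 6.85 and 3.52 CPM in WT and 9.33, 18.3 and 9.97 CPM in KO, from 11 and 24 counts in all.

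The RNA polymerase I genes were the role group whose sum separated the genotypes in IP. Over the 5 genes it was 164, 161 and 160.2 CPM in WT IP and 205, 188 and 196 CPM in KO IP, and all 3 KO libraries were also higher with library totals as the scale (137 to 166 against 198 to 207 CPM) and without globin counts (166 to 174 against 209 to 213 CPM). No single gene carried a call: Ubtf had 50.3, 71.95 and 37.0 CPM in WT IP and 81.7, 65.4 and 74.8 CPM in KO IP, with 1 KO library inside the WT range. Polr1a had 29.6, 22.3 and 33.5 CPM in WT IP and 53.7, 22.2 and 31.6 CPM in KO IP, again overlapping. The sums were not tested. Summed fibroblast markers separated in the same direction in IP, at 2685 to 3150 CPM in WT and 3255 to 3930 CPM in KO, with none of 8 tested genes of that list of 9 called and none of the 9 at 0; their part in the sums of these genes was not tested. The 3 tested members of the RNA polymerase I role all had a positive log2 fold change in IP, with a median of 0.27. Other RNA polymerase I genes and shared subunits, outside the members, mostly had the opposite sign. Of 9 tested, 7 were negative and 2 positive, with a median of -0.24, and none was called. The difference between these genes and the members was not tested. The large subunit sums, separate in Input, overlapped in IP at 428 to 510.5 CPM in WT and 441 to 520.4 CPM in KO.

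**Figure D2:**
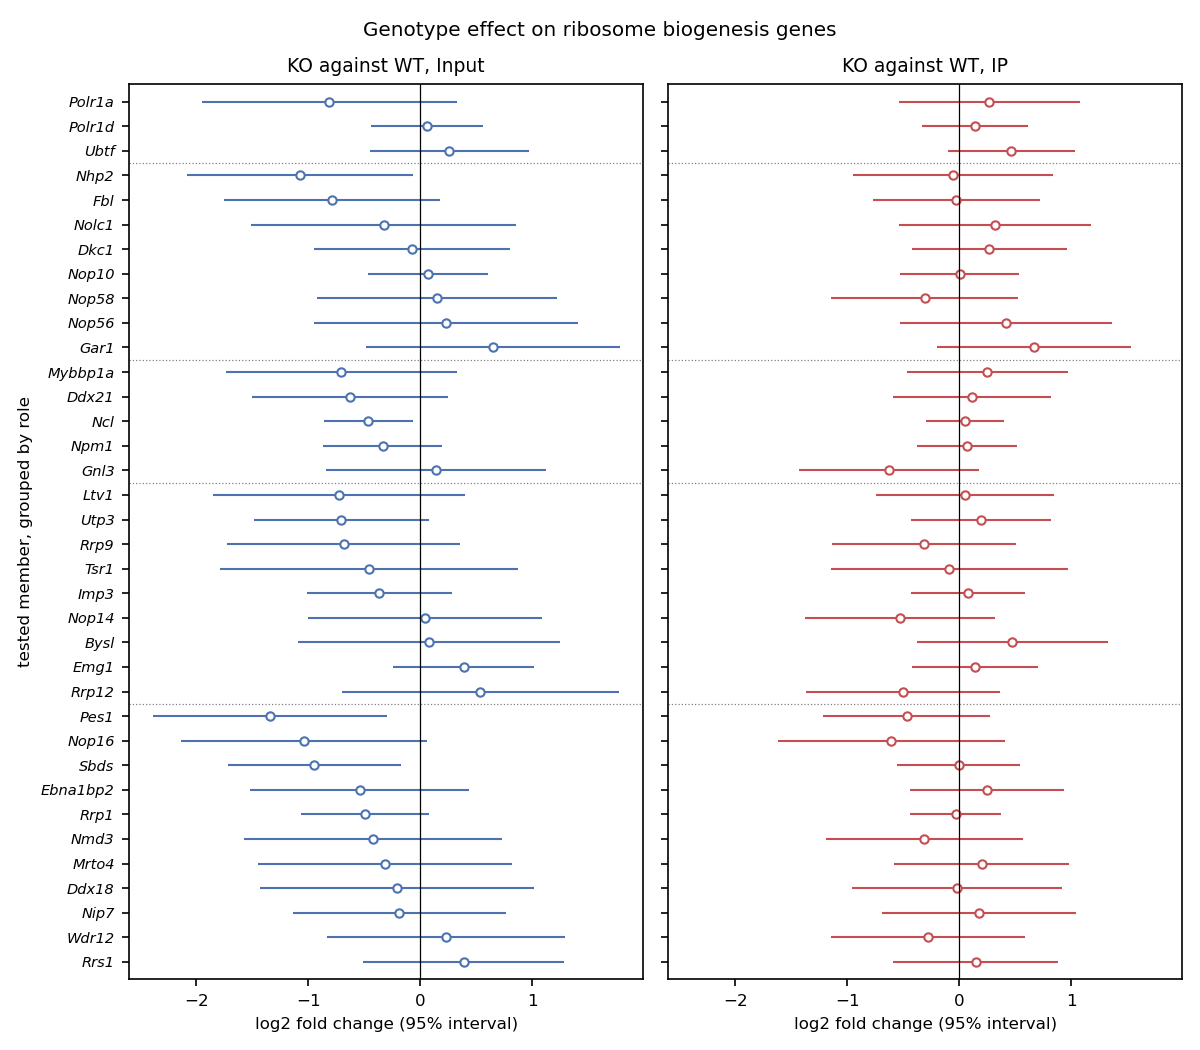
Log2 fold change of KO against WT with its 95% interval for the 36 tested members, grouped by role, in Input (left) and IP (right). Open circles mark members that did not pass the test, which is every member in both panels; in Input 23 of 36 points lie left of 0, in IP 15 of 36.

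The precision of these null results is limited. The median width of a member's 95% interval on either side of its estimate was 1.02 on the log2 scale in Input (a 2.03-fold change) and 0.79 in IP (1.73-fold). Smaller differences between the genotypes in a typical member were therefore not detectable at this depth. The intervals are not adjusted for the number of genes tested, so larger differences could also miss the threshold. Pes1 in Input, for example, was 2.54-fold lower in KO with an adjusted p of 0.538 by edgeR.

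The next comparisons set the IP fraction against Input within each genotype. Fraction and RNA purification change together, with columns for IP and TRIzol for Input, and cannot be told apart. In WT hearts, 2 of 36 members were lower in IP and none was higher, while 14.0% of all genes passed the test (5.37% higher, 8.67% lower). In KO hearts 2 members were lower and 2 higher, beside 16.4% of all genes (6.64% higher, 9.78% lower). The same 2 genes, Nop10 and Polr1d, were lower in both genotypes, and Rrp1 and Sbds were higher in KO hearts. The median log2 fold change of IP against Input was -0.02 in WT (0.02 over all genes) and 0.18 in KO (0.01 over all genes), with 17 and 25 of the 36 members positive. The WT median changed sign among the alternatives: it was -0.14 without WT Input replicate 2, 0.03 without WT Input replicate 3 and -0.20 over the 9 members left in thinned libraries. The KO median was 0.11 without KO Input replicate 1, 0.11 without KO IP replicate 3, 0.29 without KO IP replicate 2 and 0.41 without KO Input replicate 2. By comparison, mRNAs of cytosolic ribosomal proteins, which these factors assemble, were lower in IP for 70 of 74 tested genes in WT and 69 of 74 in KO, with medians of -1.49 and -1.37. These mRNAs are short, with a median longest coding transcript of 937 nt over 77 genes, and the part of length in their values was not tested.

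The start regions of the called members with a RefSeq window are shown as for the Input genes above.
Nop10 (chr2:112261866-112261945, + strand): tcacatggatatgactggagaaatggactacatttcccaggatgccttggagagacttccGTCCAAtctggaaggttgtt
Polr1d (chr5:147077286-147077365, + strand): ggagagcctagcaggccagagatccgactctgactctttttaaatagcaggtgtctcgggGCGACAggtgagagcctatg
Rrp1 (chr10:78413024-78413103, - strand): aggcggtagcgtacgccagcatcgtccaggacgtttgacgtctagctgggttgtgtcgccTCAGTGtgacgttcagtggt
None of these 3 genes holds the E-box in its 300-base window.

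Nop10, the smallest protein of the H/ACA particle (chr2:112261926-112263269, + strand, build GRCm38, ENSMUSG00000027133), had 182, 227 and 269 CPM in WT Input against 96.2, 173 and 111 CPM in WT IP. In KO it had 309, 235 and 148 CPM in Input against 154, 87.7 and 145 CPM in IP. The fractions were separate in WT, while in KO 1 IP library lay above the lowest Input library. Nop10 fell by 0.83 on the log2 scale in WT (SE 0.25, adjusted p = 0.0286 by edgeR) and by 0.89 in KO (SE 0.26, adjusted p = 0.0212), a change of 1.775-fold and 1.86-fold. The WT call was lost without WT IP replicate 1 (adjusted p = 0.169), WT IP replicate 3 (0.112), WT Input replicate 2 (0.0804) or WT Input replicate 3 (0.1195), and with thinned libraries (0.258). The KO call was lost without KO IP replicate 2 (0.138), KO Input replicate 1 (0.199) or KO Input replicate 2 (0.0674). Between genotypes Nop10 overlapped in both fractions.

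Polr1d, a small subunit common to RNA polymerases I and III (chr5:147077050-147111597, + strand), had 92.2, 101 and 124 CPM in WT Input against 63.7, 53.1 and 63.4 CPM in WT IP. In KO it had 129.5, 104 and 90.9 CPM in Input against 58.3, 68.0 and 71.5 CPM in IP. All 3 IP libraries lay below all 3 Input libraries in both genotypes. Polr1d fell by 0.80 in WT (SE 0.23, adjusted p = 0.0211 by edgeR) and by 0.72 in KO (SE 0.24, adjusted p = 0.0444). The WT call was lost in 9 of 23 alternative settings. These were the fits without WT IP replicate 1 (adjusted p = 0.0554), WT IP replicate 2 (0.0789), WT Input replicate 2 (0.0511) or WT Input replicate 3 (0.107), those with library totals (0.0577), no count filter (0.0844), DESeq2 (0.0606) or thinned libraries (0.113), and the length correction given below. The KO call held in 7 of 23 alternative settings, with adjusted p up to 0.387. It was lost on leaving out any 1 of the libraries other than WT IP replicate 2 and KO Input replicate 3, with adjusted p of 0.0548 to 0.237.

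Nop10 and Polr1d have short mRNAs, with longest annotated coding transcripts of 1109 and 1196 nt, against a median of 2277.5 nt over the tested members and 3089 nt over all genes tested. Among all tested genes under 1300 nt, cytosolic ribosomal protein genes among them, 28.4% were lower in WT IP and 31.9% in KO IP. Of the 8 tested members under 1300 nt, these 2 (25.0%) were lower in each genotype. With the trend of fold change on transcript length taken out, neither gene passed: the log2 fold changes were -0.44 and -0.45 in WT (adjusted p = 0.277 and 0.224) and -0.49 and -0.35 in KO (adjusted p = 0.246 and 0.387). Imp3 (924 nt) and Emg1 (1034 nt), which are as short, were not called. Imp3 had 82.9, 84.0 and 65.2 CPM in WT IP and 95.7, 60.2 and 93.1 CPM in KO IP, overlapping its Input values. Emg1 also overlapped, at 79.9, 44.5 and 47.5 CPM in WT IP and 86.3, 57.6 and 51.5 CPM in KO IP.

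Nhp2 (1042 nt), the partner of Nop10 in the H/ACA core, had 13.3, 34.3 and 14.1 CPM in WT IP and 21, 18.3 and 19.95 CPM in KO IP, against the Input values given above. Its log2 fold change in WT was -1.14 (SE 0.42), but the adjusted p of 0.0681 by edgeR missed the threshold, and its fractions overlapped. Nhp2 passed in 2 of 21 alternatives: with limma-voom (adjusted p = 0.0357) and without WT IP replicate 2 (adjusted p = 0.0218). The remaining snoRNP members named here, Dkc1 (22.2, 41.1 and 37.0 CPM in WT IP, 42.0, 44.5 and 33.2 CPM in KO IP) and Fbl (23.7, 51.4 and 26.4 CPM in WT IP, 37.3, 22.2 and 41.6 CPM in KO IP), overlapped between fractions.

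Rrp1 (chr10:78400384-78413043, - strand) was higher in IP. Against its Input values above, it had 124, 161 and 114 CPM in WT IP and 163, 120.4 and 111 CPM in KO IP. Every IP library lay above every Input library in both genotypes. The log2 fold change was 0.58 in WT (SE 0.22), which missed the threshold with an adjusted p of 0.0801 by edgeR, and 1.04 in KO (SE 0.26, adjusted p = 0.00583), a 2.05-fold rise. The WT value passed with library totals (adjusted p = 0.0481) and with the length trend removed (adjusted p = 0.0382). The KO call held in 22 of 23 alternatives; with all libraries thinned to the smallest total the log2 fold change was 0.75 (adjusted p = 0.144).

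Sbds (chr5:130245731-130255530, - strand) rose in IP of KO hearts by 1.12 on the log2 scale (SE 0.35, adjusted p = 0.0304 by edgeR, a 2.175-fold change), and the KO fractions did not overlap. In WT the fold change was 0.18 (SE 0.29, adjusted p = 0.728) with overlap. The KO Input libraries enter both this result and the lower KO Input level of Sbds given above, so these are not 2 separate observations. The call was lost without KO IP replicate 2 (adjusted p = 0.0924), KO Input replicate 1 (0.101) or KO Input replicate 3 (0.119). It was also lost with DESeq2 (0.0593), with limma-voom (0.0992) and when only the compared libraries were fitted (0.0522).

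**Figure D3:**
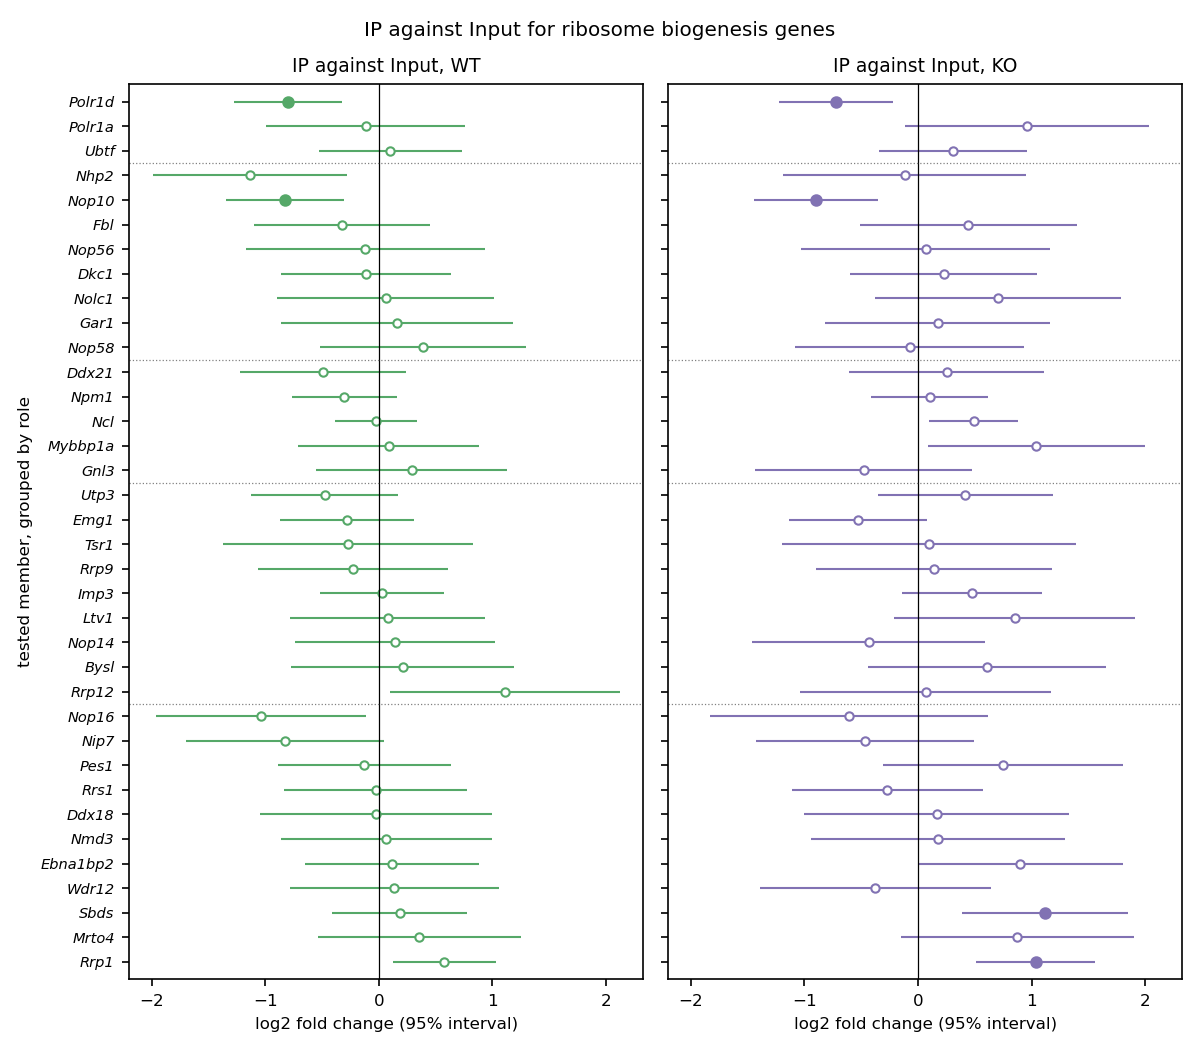
Log2 fold change of IP against Input with its 95% interval for the 36 tested members, grouped by role, in WT (left) and KO (right); filled circles passed the test. Nop10 and Polr1d are filled to the left of 0 in both panels, and Rrp1 and Sbds to the right of 0 in KO only, where the difference between genotypes was not past the threshold for either gene.

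Among the other members, those whose fractions did not overlap in WT were Rrp12 and Rrp1, higher in IP (2 of 36, 5.56%, beside 16.4% of all genes), and Polr1d, Nop10, Nop16 and Nip7, lower in IP (4 of 36, 11.1%, beside 18.2% of all genes). In KO, Nolc1, Ncl, Mybbp1a, Rrp1, Mrto4 and Sbds were separate and higher in IP (6 of 36, 16.7%, beside 15.2%), and Polr1d was separate and lower (1 of 36, 2.78%, beside 15.6%). Each share was near or below that of all genes. Ncl, for example, had a fitted log2 difference of 0.49 in KO (SE 0.19, adjusted p = 0.0802 by edgeR), from the Input and IP values above. Nop16, a large subunit factor with 32.4, 32.1 and 33.6 CPM in WT Input and 19.2, 17.1 and 10.6 CPM in WT IP, had -1.04 (SE 0.45, adjusted p = 0.127). Rrp12 had 14.96, 14.8 and 6.72 CPM in WT Input and 26.6, 23.98 and 31.7 CPM in WT IP, with a log2 ratio of 1.11 (SE 0.49, adjusted p = 0.137). Nop16 passed the count filter only through WT Input, and Rrp12 would not have passed without WT IP, in each case the group where the gene is high. Grwd1, an untested large subunit chaperone, had 5 counts in WT Input and 22 in WT IP.

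Summed markers of some other cell types also moved with the fraction, while those of fibroblasts, smooth muscle and macrophages overlapped between fractions in both genotypes. Summed over 6 adipocyte markers, the level was 111 to 658 CPM in WT Input and 159 to 347 CPM in KO Input, against 14.8 to 52.8 CPM in WT IP and 23.3 to 49.7 CPM in KO IP. The 2 genes of that list that were tested were lower in IP in both genotypes. Over 9 endothelial markers it was 2501 to 3261 CPM in WT Input and 2913 to 3728 CPM in KO Input, against 1828 to 2400 CPM in WT IP and 1877 to 1963 CPM in KO IP. Of 8 tested, 1 was higher and 1 lower in WT, and 1 higher and 3 lower in KO; Cav1 of that list was at 0 in every library. Fabp4 made up most of the endothelial sum, with 2009 counts in WT Input, where no other gene of that list exceeded 271. The part of these cell types in the members' values was not tested.

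The last comparison asks whether the IP to Input ratio itself differed between genotypes (the interaction term). No member passed, where 0.0910% of all genes did, and none had an unadjusted p under 0.05 (7.02% of all genes). The log2 difference was positive, a higher ratio in KO, for 28 of 36 members, with a median of 0.38 beside 0.01 over all genes (0.24 without WT Input replicate 1, and 0.17 over the 9 members left in thinned libraries). The role medians were 0.21 for RNA polymerase I, 0.26 for snoRNP proteins, 0.52 for the nucleolar scaffold, 0.37 for small and 0.43 for large subunit factors. For Sbds the difference was 0.94 (SE 0.46, unadjusted p = 0.0526, adjusted p = 0.715 by edgeR), and for Rrp1 0.46 (SE 0.34, adjusted p = 0.841), so the KO calls of these genes were not shown to differ from WT. The median interval was 1.30 on either side, a 2.46-fold change. Since this term combines the 4 groups, it holds the same lower KO Input values as the first comparison.

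The 140 other ribosome biogenesis genes in the files that are not among the 44 (other assembly factors, other RNA polymerase I and shared subunits, snoRNP assembly proteins and the RNA exosome), of which 63 were tested, gave no call between genotypes in Input, in IP or in the interaction. Their medians were 0.03, -0.03 and -0.06, against the members' medians of -0.33, 0.06 and 0.38; the difference between the lists was not tested. Between fractions, 1 was higher and 3 were lower in WT, beside 5.37% and 8.67% of all genes. In KO 2 were higher and 5 lower, beside 6.64% and 9.78%. Among those lower in WT, Utp11 (adjusted p = 0.0496 by edgeR) lost its call in 15 of 21 alternatives. C1d (adjusted p = 0.0299 by edgeR) lost it in 7 of 23. Llph was lower in IP in both genotypes (log2 fold change -1.36, adjusted p = 0.0177 in WT and -1.42, adjusted p = 0.0195 in KO by edgeR). The Llph calls were lost without WT IP replicate 1 (0.0838), WT Input replicate 2 (0.0622) or WT Input replicate 3 (0.0594) in WT, and without KO IP replicate 2 (0.0686) or KO Input replicate 3 (0.124) in KO. They were also lost with the length trend removed (0.0514 in WT and 0.0547 in KO) and, in KO, without a count filter (0.0689). Rrn3, the factor that brings RNA polymerase I to its promoter, had 29.9, 19.7 and 36.9 CPM in WT Input and 65.1, 61.7 and 58.1 CPM in WT IP. This was a rise of 1.12 (adjusted p = 0.0172 by edgeR). The Rrn3 call was lost without WT IP replicate 1 (0.0564), WT Input replicate 1 (0.0573) or WT Input replicate 2 (0.114), and with DESeq2 (0.0566).

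**Figure D4:**
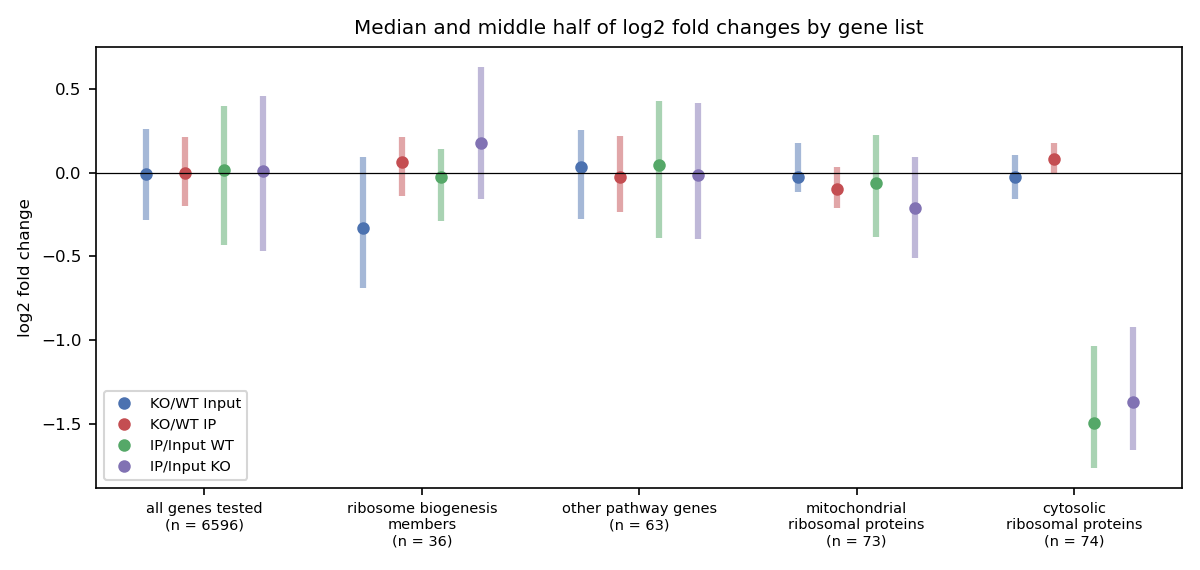
Median log2 fold change, with quartiles, of the tested members, other ribosome biogenesis genes, cytosolic and mitochondrial ribosomal proteins and all genes tested, for the 4 comparisons between groups. The members' medians lie at -0.33 in Input and 0.06 in IP between genotypes, and cytosolic ribosomal proteins stand apart between fractions at -1.49 in WT and -1.37 in KO.

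Taken as a share of all counts, the 44 members made up 0.180, 0.176 and 0.178% in WT Input and 0.154, 0.166 and 0.152% in KO Input. In IP they made up 0.175, 0.163 and 0.176% in WT and 0.196, 0.188 and 0.196% in KO. By this measure every KO library was lower in Input and higher in IP. The separation depends on the scale. Without globin counts in the totals the Input ranges stayed separate (0.179 to 0.207% in WT, 0.155 to 0.174% in KO) but the IP ranges overlapped (0.180 to 0.197% and 0.193 to 0.211%). On the TMM scale, both fractions overlapped (Input 1845 to 2136 CPM in WT and 1466 to 1853 CPM in KO; IP 1703 to 1915 CPM and 1744 to 2030 CPM).

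**Figure D5:**
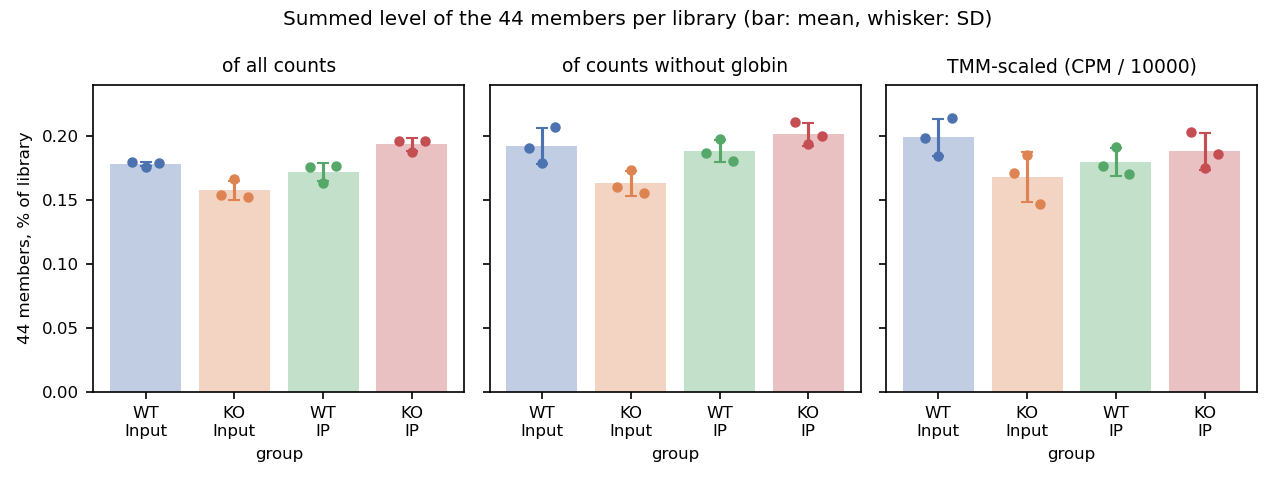
Summed level of the 44 members in each library as a percent of the library, by group, under 3 denominators; points are libraries, bars are means of 3 and whiskers are SD. KO lies below WT in Input and above it in IP with library totals (left), and the IP groups overlap with the other denominators.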

How the data were processed

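RNA was enriched for poly(A), and barcoded direct cDNA libraries were sequenced by nanopore on a MinION, per the labels' protocols. The deposited files hold 1 whole-number read count per gene and library, not normalized. The submitters' processing notes name minimap2 2.14, DESeq2 1.34.0 and GRCm38 without a role, and the counting tool, rule and strand setting are not given in the sources used here. Gene names, coordinates and transcript lengths (the longest coding transcript) came from GENCODE M21, which matched 55141 of 55401 identifiers without version; 38803 genes were 0 in every library and no 2 libraries were identical.

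Counts were tested with edgeR 4.0.16 (R 4.3.3) by the quasi-likelihood test on all 12 libraries with 1 mean per group, TMM factors and filterByExpr (minimum count 10, minimum total 15), which left 6596 genes. P-values were Benjamini-Hochberg adjusted over all of them, with a threshold of 0.05. SE is the log2 fold change divided by the square root of F. The common biological coefficient of variation was 18.25%. The pipeline was tested on simulated data. The replicates are biological per the design text. Alternatives were DESeq2 1.42.0, limma-voom (limma 3.58.1), other scaling factors, other filters, thinning, a length correction and leaving out each library.

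The 44 members, the lists beside them and the rule for genes given in every library (members past the threshold, the 3 with the highest mean CPM of each role, and members with separate genotype groups and unadjusted p under 0.05; of other lists, the smallest p) were chosen with earlier results of these data known. The other scales for summed levels were chosen after seeing the data, and Nop16, Rrp12, Heatr1 and Grwd1 were added after their values were seen. The 95% intervals come from the same fit and include the spread between replicates; the limit of 3 counts covers counting error only.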

Additional observations from a re-analysis of the deposited data

Results flagged for a closer look

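The share of the 44 members in all counts moved in opposite directions in the 2 fractions. Every KO library lay below every WT library in Input (means 0.158% and 0.178%) and above every WT library in IP (means 0.193% and 0.172%). The genotype difference in IP minus that in Input was 0.0421 percentage points. This difference between the fractions was not tested, and it depends on the scale, since the IP groups overlapped without globin counts in the totals and both fractions overlapped on the TMM scale.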

How the results depend on the processing

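No member passed between genotypes in Input, in IP or in the interaction under any of 22 alternatives each, although the stricter filter and thinning left 9 members to test. Between fractions in WT, where 2 members passed, the number was 1 without a count filter, 1 with DESeq2, 0 with thinned libraries, 1 with the length trend removed and 3 with limma-voom, and 0 to 2 when 1 library was left out: 0 without WT IP replicate 1, WT Input replicate 2 or WT Input replicate 3, and 1 without WT IP replicate 3. In KO, where 4 passed, it was 2 with DESeq2 and 2 with only the compared libraries, and 1 to 4 when 1 library was left out: 1 without KO IP replicate 2 or KO Input replicate 1, and 2 without KO Input replicate 2. For Rrp1 the interaction turned from 0.46 to -0.00137 in thinned libraries. The causes were not tested. Deviations of libraries with the same replicate number correlated at -0.157 to 0.0682. For IP with Input of the same genotype the range was -0.0763 to 0.016, so the numbers gave no sign of pairing. Differently numbered libraries reached 0.185 over all pairs of groups (WT IP replicate 2 with KO IP replicate 1). For IP with Input of the same genotype they reached 0.0927 (KO IP replicate 1 with KO Input replicate 2). WT IP replicate 2 and WT Input replicate 3, at 0.0726, also had the highest globin shares (17.3 and 13.8%). Pairing across numbers was not tested. With the replicate number as a block, 2 members passed in WT and 3 in KO between fractions (Polr1d was lost in KO, adjusted p = 0.0589 by edgeR) and 0 elsewhere. Depth limits these results most in KO Input, where several members rest on fewer than 10 counts a library. Over all genes, calls between genotypes in Input went from 12 to 77 without a count filter, 5 with the stricter filter and 6 with thinned libraries; in IP from 6 to 55 without a filter, 10 with DESeq2 and 3 thinned; in the interaction from 6 to 37 without a filter, 1 with limma-voom and 0 thinned; and between fractions, when thinned, from 926 to 466 in WT and from 1083 to 665 in KO. Leaving out 1 library gave 4 (without WT Input replicate 1) to 17 in Input, 2 (without WT IP replicate 1) to 8 in IP, 1 (without WT Input replicate 1) to 8 in the interaction, 601 (without WT Input replicate 1) to 1019 between fractions in WT and 739 to 1034 in KO.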

Other observations

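Among other ribosome biogenesis genes, calls between fractions did not follow 1 direction. In KO hearts Esf1, a small subunit factor, had 26.7, 7.70 and 11.4 CPM in Input and 53.7, 48.4 and 49.9 CPM in IP. The log2 fold change was 1.67 (adjusted p = 0.00904 by edgeR). This call was lost without KO Input replicate 2 (0.0806) and with limma-voom (0.0924). Ruvbl2, a helicase of the snoRNP assembly machinery, was at 0 in 2 of 3 KO Input libraries and at 18.7, 34.0 and 41.6 CPM in KO IP. Polr2k, a small subunit shared by RNA polymerases, had 129.5, 131 and 165 CPM in KO Input and 81.7, 62.8 and 43.2 CPM in KO IP, a fall of 1.19 on the log2 scale (adjusted p = 0.00222), but 0.56 (adjusted p = 0.163) with the length trend removed. In Input, Polr2e, another shared subunit, had 149.6, 145.5 and 144 CPM in WT and 95.2, 88.6 and 90.9 CPM in KO. Its genotype groups were far apart relative to their spread, and the log2 fold change of -0.68 had an adjusted p of 0.526 by edgeR. Polr2e was named for the smallest p of its list in Input. For 6.20% of all genes tested every KO Input library lay below every WT Input library. In IP the genotypes also separated for Rrn3, with 65.1, 61.7 and 58.1 CPM in WT and 44.3, 37.9 and 33.2 CPM in KO (log2 fold change -0.69, adjusted p = 0.910 by edgeR). Rrn3 was likewise named for the smallest p of that list, and 5.44% of all genes tested separated in this direction in IP.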
